A study of Homo sapiens with 6 samples.

Results

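The genes of the integrated stress response described here were PPP1R15A, ATF4, DDIT3, ASNS, CHAC1, TRIB3, SESN2, DDIT4, XBP1 and CEBPB. These 10 of the 20163 annotated protein-coding genes were chosen by name as genes of this pathway, with earlier results from the same SMARCA4 peak list known, so that the presence of a peak at them is a description and not a finding. Their peaks were taken by position, as every peak that touched the gene's annotated span or the 10 kb on either side of it. The 10 windows held 39 of the 28265 peaks of the deposited list.

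SMARCA4, the ATPase subunit of the SWI/SNF chromatin remodelling complex, was mapped by ChIP-seq, in which DNA crosslinked to a protein is recovered with an antibody and sequenced. The cells were K562, an established human chronic myelogenous leukaemia line. Fixation was with disuccinimidyl glutarate (2 mM, 30 min), followed by formaldehyde (1%, 10 min). The chromatin was sheared to 150 to 400 bp. There were 3 SMARCA4 ChIP libraries and 3 input libraries, and the labels name no stress treatment, so that every value describes 1 condition. The labels conflict in part: title and antibody of the ChIP samples name SMARCA4, which was followed here, while their description field names G4 ChIP-seq, and the series' design text counts 1 input. The deposited list keeps what 2 or more of the 3 replicates shared and gives each region only a start and an end on hg19. Peak height, depth and the spread between replicates are not in it and were not analysed here.

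In the integrated stress response, kinases that sense amino acid shortage, haem shortage, viral RNA or unfolded proteins phosphorylate the translation factor eIF2, which lowers protein synthesis in general while translation of the ATF4 mRNA increases. ATF4 is a basic leucine zipper factor that pairs with C/EBP proteins on a composite DNA element and activates genes of amino acid supply, redox balance, feedback and cell death. The unfolded protein response shares the sensor PERK with this pathway and has branches of its own through XBP1 and ATF6, the latter acting on the endoplasmic reticulum (ER) stress element.

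The sequences below are stretches of promoter peaks, at least 1 for each of 7 members, that hold the composite element, here called the ATF4 motif and searched as TGATGNAA on both strands. A promoter peak is a peak that overlaps the 1 kb on either side of any annotated transcription start site (TSS) of the gene, and positions are relative to the TSS of the gene's canonical transcript. The stretches are of hg19, on the gene's strand from 5′ to 3′, with the motif in capitals. A motif that lies on the opposite strand reads TTNCATCA. The stretches lie at chr12:57914576-57914623 (minus strand, DDIT3, motif centre at -302 bp), chr1:28585713-28585760 (plus strand, SESN2, -292 bp), chr7:97501770-97501799 (minus strand, ASNS, -64 bp), chr15:41245449-41245478 (plus strand, CHAC1, -205 bp), chr20:361525-361554 (plus strand, TRIB3, 136 bp) and chr20:48808922-48808951 (plus strand, CEBPB, 1570 bp). Those of DDIT4 lie at chr10:74032489-74032557 (motif centres at -1165 and -1144 bp) and chr10:74032654-74032763 (-1000 and -938 bp), both on the plus strand.
DDIT3: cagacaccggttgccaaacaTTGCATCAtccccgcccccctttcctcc
SESN2: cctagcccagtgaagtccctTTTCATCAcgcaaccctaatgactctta
ASNS: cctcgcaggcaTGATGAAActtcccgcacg
CHAC1: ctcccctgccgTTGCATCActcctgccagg
TRIB3: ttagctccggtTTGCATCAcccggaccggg
CEBPB: ggtttcgaagtTGATGCAAtcggtttaaac
DDIT4 distal pair: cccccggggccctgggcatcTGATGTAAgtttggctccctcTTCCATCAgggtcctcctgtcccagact
DDIT4 proximal pair: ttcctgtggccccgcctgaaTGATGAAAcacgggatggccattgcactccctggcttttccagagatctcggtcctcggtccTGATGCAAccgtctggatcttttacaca
The stretch of TRIB3 is present 3 times without a difference in its 30 bases, the copies starting 33 bp apart at 361525, 361558 and 361591 of chromosome 20, in the annotated 5′ untranslated part of the canonical exon 1. The ASNS and CHAC1 motifs lie upstream of the canonical TSS but inside exons of longer annotated transcripts, the SESN2 and DDIT4 motifs lie upstream of the gene, and the DDIT3 motif lies in an intron of a longer DDIT3 transcript.

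All 10 members had a promoter peak, which 48.1% of coding genes had (9689 of 20163), and all 10 had a peak in the window, which 63.0% had. In all 10 members a peak covered the canonical TSS, against 34.3% of coding genes. Since the members were chosen with these peaks known, the shares are given only as the level of the whole annotation. Of the 39 peaks, 22 were promoter peaks, 15 were distal, and 2 were not at the member's promoter but lay within 1 kb of the TSS of another coding gene, RPS19BP1 in the ATF4 window and MARS1 in the DDIT3 window. The members had a median of 4 peaks in the window, against 1 over all coding genes. ASNS, CHAC1, DDIT4 and XBP1 had no peak in the window apart from those at the promoter.

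**Figure D1:**
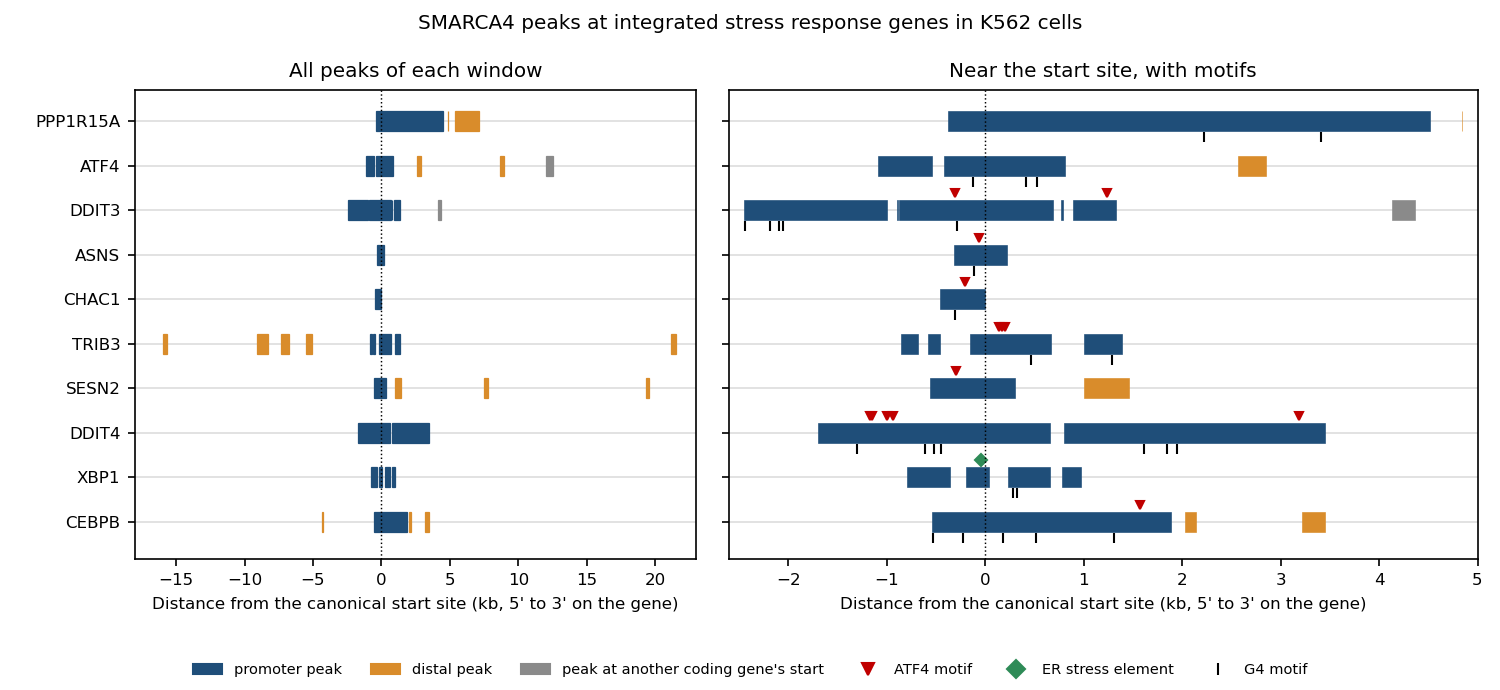
SMARCA4 peaks at each of the 10 genes, drawn as bars against the distance in kb from the canonical TSS on the gene's strand, for the whole window (left) and near the TSS (right). Triangles mark ATF4 motifs, the diamond the ER stress element and short strokes G4 motifs inside peaks. Every gene has a peak over its TSS, and the widest bar is that of PPP1R15A, with 4895 bp.

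The member that reverses the response had the widest peak. PPP1R15A encodes the subunit that brings protein phosphatase 1 to phosphorylated eIF2. Its promoter peak was 4895 bp wide (chr19:49375304-49380198, from -374 to 4520 bp), and only 3 of the 28265 peaks were wider. The peak covered all 3848 bp of the gene, its 3 exons included, and ran past the gene's end. A further peak of 1734 bp followed (chr19:49381077-49382810, from 5399 to 7132 bp), and 99.0% of the list was at most as wide. A fragment of 6 bp stood between them. Peaks covered 27.8% of the PPP1R15A window, the highest share among the members. The window held no ATF4 motif, in or out of peaks. The cyclic AMP response element (CRE, TGACGTCA) occurred once in its promoter peak, at -54 bp, and PPP1R15A was the only member with it. Over coding genes with a promoter peak, 5.12% had a CRE there.

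ATF4 and its leucine zipper partners differed in how their peaks were laid out. ATF4, the central factor, had a promoter peak of 1233 bp over the TSS (chr22:39916146-39917378) and another of 551 bp 119 bp upstream of it (chr22:39915476-39916026). The window also held peaks of 291 and 270 bp at 2709 and 8794 bp, the latter inside RPS19BP1, and the RPS19BP1 promoter peak of 538 bp. Neither of the 2 ATF4 motifs in the ATF4 window was in a peak. CEBPB, whose product C/EBPβ can pair with ATF4, had a promoter peak of 2431 bp (chr20:48806823-48809253), and 63 of all peaks were wider. Like that of PPP1R15A, it contained the whole gene, which has 1 exon and spans 1839 bp. The ATF4 motif of CEBPB was in the untranslated 3′ part of this exon, 899 bp from the centre of the peak. The other CEBPB peaks were narrow, at 97, 112 and 236 bp.

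DDIT3 encodes CHOP, a C/EBP relative that is induced in prolonged ER stress. Its promoter was covered by 5 peaks, of 1460, 10, 1571, 16 and 445 bp in the direction of transcription, with gaps of 102, 2, 83 and 97 bp between them. The peak of 1571 bp covered the TSS (chr12:57913606-57915176) and held the ATF4 motif at -302 bp. The peak of 445 bp held a second ATF4 motif at 1234 bp, in an intron (chr12:57912965-57913409). These peaks also lay within 1 kb of start sites of MBD6, the microRNA gene MIR616 or a coding readthrough transcript, and the list cannot assign them to 1 gene. The peak of 1571 bp was within 1 kb of a start site of each of these 3. The same limit holds for all 4 promoter peaks of XBP1, the promoter peak of CEBPB and the peak of DDIT4 over its TSS, which lay within 1 kb of a start site of another annotated gene, in CEBPB that of CEBPB-AS1.

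XBP1, the factor whose mRNA is spliced by the sensor IRE1, had 4 promoter peaks of 443, 231, 426 and 188 bp, separated by 159, 193 and 128 bp. The peak of 231 bp covered the TSS (chr22:29196522-29196752) and held the only ER stress element among the members, CCAAT and CCACG 9 bases apart, centred at -43 bp. The stretch at chr22:29196586-29196629 is given on the minus strand, which is that of the gene, with the element in capitals.
XBP1: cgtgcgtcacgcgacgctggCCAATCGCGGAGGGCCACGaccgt
Of the 9689 coding genes with a promoter peak, 20 (0.206%) had this element in it, on either strand, and 0.104% of all coding genes had it in the 300 bp from 250 bp upstream to 50 bp downstream of the TSS. Its CCAAT is also counted as a CCAAT motif. None of the 10 ATF4 motifs in the XBP1 window was in a peak. The UPR element TGACGTG was in no promoter peak of a member, against 4.96% of coding genes with a promoter peak. It occurred in a distal peak of TRIB3 and in the intronic peak of SESN2 farthest from its TSS.

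The metabolic targets had the plainest pattern. ASNS, which makes asparagine from aspartate, had a single peak of 532 bp (chr7:97501501-97502032, from -312 to 219 bp), and CHAC1, which degrades glutathione, a single peak of 464 bp that ended at the canonical TSS (chr15:41245206-41245669, from -463 to 0 bp). Both peaks were centred near their ATF4 motif, which lay 18 bp from the peak centre in ASNS and 26 bp in CHAC1. The peaks covered 1.30% of the ASNS window and 1.97% of the CHAC1 window, the lowest shares among the members. Their widths were near the median of 533 bp that the widest promoter peak had over coding genes with any.

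TRIB3, a pseudokinase that is induced by ATF4 and restrains it, had the most peaks, 9. Its window, of 54725 bp, was also the longest among the members. The promoter peaks were 179, 131, 826 and 383 bp wide, and that of 826 bp covered the TSS and the 3 copies of the ATF4 motif (chr20:361249-362074). Another 4 peaks, of 311, 852, 598 and 442 bp, lay upstream of the canonical TSS, centred at -15784, -8676, -7020 and -5308 bp, within the span of a longer TRIB3 transcript. The last peak, of 393 bp, was centred at 21314 bp, past the end of the gene. All 5 distal peaks held an AP-1 motif (TGANTCA), which 20.9% of all peaks held, promoter peaks included. ATF4 motifs were in the peaks of 852 bp (at -8776 bp) and 393 bp (at 21344 bp).

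SESN2 and DDIT4 encode inhibitors of the growth kinase mTORC1, and their peaks differed in extent. SESN2 had a promoter peak of 865 bp (chr1:28585472-28586336) and 3 intronic peaks of 461, 318 and 254 bp, centred at 1235, 7636 and 19420 bp. DDIT4 had promoter peaks of 2357 bp (chr10:74031984-74034340) and 2653 bp (chr10:74034478-74037130), with 137 bp between them, and only 71 and 38 peaks of the list were wider. Together they covered 93.5% of the 2117 bp of the gene. DDIT4 had 5 ATF4 motifs in these peaks, the 4 shown above and another at 3185 bp, past the gene's end.

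Gene length differed between the members and the coding genes with a promoter peak. The median span of the members was 4499 bp, against 32148 bp for coding genes with a promoter peak. Peaks covered at least 50% of the span in PPP1R15A, ATF4, DDIT4 and CEBPB, and in 80 of all 20163 coding genes (0.397%). PPP1R15A and CEBPB were among 29 coding genes that lay wholly inside 1 peak. The share of the span covered had a median of 28.6% over the members and 1.49% over coding genes with a promoter peak. The part of the shorter span in this difference was not tested.

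Width was compared with the whole list in bp, since the list has no other measure of size. The 22 promoter peaks of the members had a median width of 498 bp (95% confidence interval of the median 231 to 1460 bp), against 414 bp (407 to 420 bp) for the 12629 promoter peaks of coding genes, and the interval of the members included the latter. With peaks narrower than 200 bp left out the medians were 826 bp (445 to 1571 bp) for 17 peaks of members and 482 bp for those of coding genes, and with peaks at most 500 bp apart merged they were 2074 bp (532 to 5147 bp) for 10 and 555 bp. The interval of the members again included the value of coding genes in both. The median hides a broad spread, from 10 to 4895 bp. Among the members' promoter peaks 5 of 22 (22.7%) were at least 1500 bp wide, against 2.76% of promoter peaks of coding genes and 1.72% of all peaks. Those 5 were in PPP1R15A, DDIT3, DDIT4 and CEBPB. At the other end 5 of 22 were narrower than 200 bp, against 15.7% of promoter peaks of coding genes. The 15 distal peaks had a median width of 311 bp (236 to 461 bp), against 341 bp (336 to 345 bp) for peaks away from coding promoters.

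Taken per gene, the widest promoter peak had a median of 1049 bp over the members and 533 bp over coding genes with a promoter peak, and 7 of 10 members were above the latter. ASNS, CHAC1 and XBP1, with 532, 464 and 443 bp, were the members below it. Peaks covered a median of 550.5 bp of the 1 kb upstream and 741.5 bp of the 1 kb downstream of the canonical TSS in the members, against 301 and 192 bp in coding genes with a promoter peak. All 10 members had a peak over the canonical TSS, whereas 6915 of these 9689 coding genes did, so the groups are not matched in this. In PPP1R15A and CEBPB the whole 1 kb downstream was covered, in DDIT4 the whole 1 kb upstream, and in CHAC1 1 bp downstream.

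**Figure D2:**
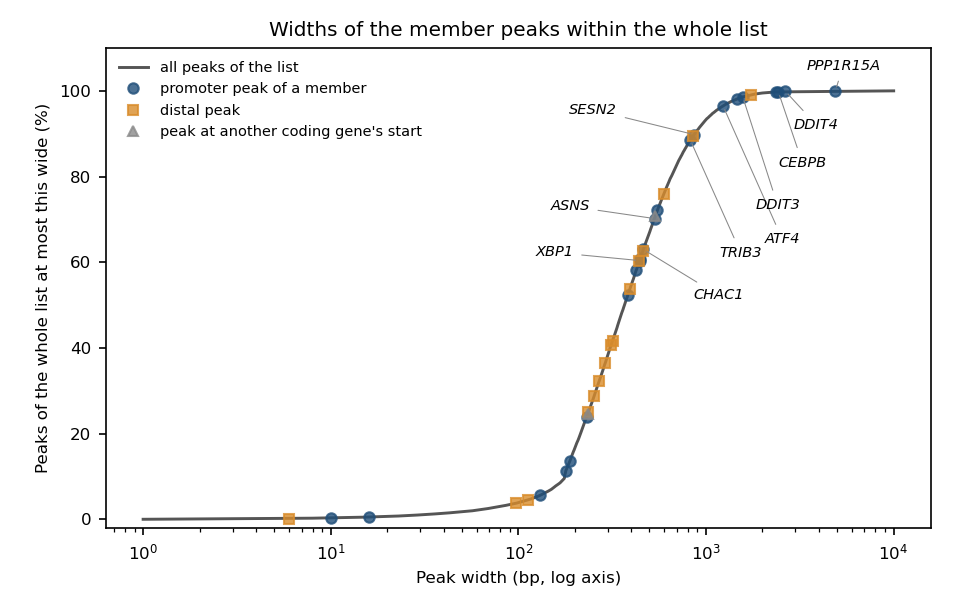
Width of each of the 39 member peaks in bp (log axis) against the percentage of all 28265 peaks that were at most as wide. The line is the whole list, circles are promoter peaks, squares distal peaks and triangles peaks at another coding gene's TSS, and the name of each gene points to its widest promoter peak. The widest promoter peaks of PPP1R15A, DDIT4, CEBPB and DDIT3 lie at the top of the line, whereas those of CHAC1 and XBP1 lie at 63.0% and 60.4%.

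The ATF4 motif was in a promoter peak of 7 of 10 members, DDIT3, ASNS, CHAC1, TRIB3, SESN2, DDIT4 and CEBPB, against 5.45% of coding genes with a promoter peak (528 of 9689). PPP1R15A, ATF4 and XBP1 had none there. Wider peaks hold more motifs by their length alone, so the share is also given by the summed width of a gene's promoter peaks. It was 1.69% of coding genes below 500 bp, where CHAC1 had the motif, and 4.07% from 500 to 1000 bp, where both members, ASNS and SESN2, had it. It was 9.83% from 1000 to 2000 bp, where TRIB3 had it and ATF4 and XBP1 did not, and 25.2% from 2000 bp, where DDIT3, DDIT4 and CEBPB had it and PPP1R15A did not. Each width class holds at most 4 members, so these shares are descriptions of single genes. Counted by peak, the motif was in 11 member peaks. In the 200 bp centred on the peak, which may reach past a narrower peak, it was found for 5.

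Without regard to peaks the motif was common: 18.8% of all coding genes had it within 1 kb of the canonical TSS on either side, and 6 of 10 members had it there. In the 300 bp around the TSS, 2.48% of coding genes and 2 members had it. Of the 631089 ATF4 motifs in the genome 1830 lay wholly in a SMARCA4 peak (0.290%, 95% Wilson confidence interval 0.277 to 0.304%), and of the 62 in the member windows 16 did (25.8%). Peaks covered a median of 9.06% of the window in the members, against 0.648% over all coding genes. The part of this coverage in the difference was not tested. The members were chosen with their peaks known, so the share of 25.8% is a description. By gene it was 5 of 7 motifs in DDIT4, 5 of 13 in TRIB3, 2 of 7 in DDIT3, 1 of 3 in CEBPB, 1 of 4 in CHAC1, and 1 of 8 in both ASNS and SESN2.

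TRIB3 and DDIT4 had the most ATF4 motifs inside promoter peaks among the members. With 3 and 5 of them they were among only 4 of the 9689 coding genes (0.0413%) that had at least 3. The others were SLC16A1 and IGF2R, with 3 each, which were named after their values were seen. The stricter form TGATGCAA, which every TGATGNAA count includes, was in promoter peaks of DDIT3, CHAC1, TRIB3, DDIT4 and CEBPB, against 1.44% of coding genes with a promoter peak. A match to these letters is a description of the sequence and does not show that ATF4 was bound.

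G4 motifs, searched on both strands as 4 guanine runs, each of 3 or more bases, separated by 1 to 7 bases, are sequences that can fold into the four-stranded structures studied with SMARCA4 in this cell line. They were in a promoter peak of 9 of 10 members, all but SESN2, against 52.3% of coding genes with a promoter peak (5071 of 9689). The share rose with summed promoter width from 30.0% below 500 bp to 85.1% from 2000 bp. In the 300 bp around the TSS 33.6% of coding genes and 3 members had the motif, and 23.4% of all peaks held it. With loops of up to 12 bases all 10 members had it in a promoter peak, against 68.8% of coding genes with a promoter peak. G4 motifs overlapped the SP/KLF motif GGGCGG in 20 pairs of matches in member peaks. A G4 motif is a description of the sequence and does not show that a G4 structure was folded there in these cells.

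The G4 motif closest to an ATF4 motif was that of DDIT3, centred at -282 bp against -302 bp for the ATF4 motif (chr12:57914560-57914599). The following stretches show it with the motif nearest the TSS outside annotated untranslated regions in TRIB3 (chr20:361849-361883, centred at 462 bp) and XBP1 (2 motifs in chr22:29196219-29196288, centred at 285 and 322 bp), on the gene's strand with the motif in capitals. Runs of cytosines are motifs of the opposite strand.
DDIT3 G4: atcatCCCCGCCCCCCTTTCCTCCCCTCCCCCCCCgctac
TRIB3 G4: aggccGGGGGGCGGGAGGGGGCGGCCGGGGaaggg
XBP1 G4: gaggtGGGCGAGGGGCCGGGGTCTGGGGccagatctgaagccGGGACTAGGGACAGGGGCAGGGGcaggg

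Other motifs were common in promoter peaks of coding genes as well. SP/KLF was in those of 10 of 10 members and of 83.0% of coding genes with a promoter peak. CCAAT was in those of 8 members and 47.6%, and the ETS motif CCGGAA in those of 6 members and 45.6%. The E-box CACGTG was in 4 members and 20.2%, AP-1 in 4 members and 14.9%, and the GATA motif AGATAA in 4 members and 1941 of the 9689 coding genes. These promoter peaks are not matched for width. In the fixed 300 bp around the TSS SP/KLF was in 7 of 10 members and 61.0% of coding genes, CCAAT in 6 members and 35.9%, ETS in 2 members and 22.6%, and the E-box in 1 member and 8.72%. AP-1 was there in 1 member and 5.43%, GATA in 0 members and 7.22%, CRE in 1 member and 2.69%, and the UPR element in 0 members and 2.15%. The GATA motif, bound by the erythroid factor GATA1 that K562 expresses, was in 23.1% of the 39 member peaks and in 32.6% of all peaks. All motifs were searched on both strands. With G4 loops of up to 7 bases, no matches of different motifs overlapped in member peaks apart from the pairs already named.

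**Figure D3:**
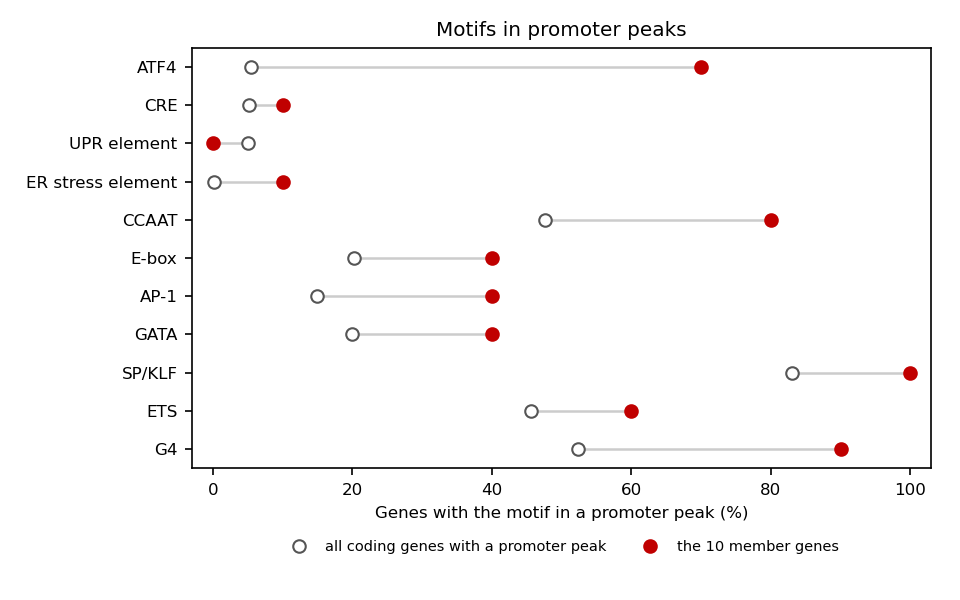
Percentage of genes with each motif in a promoter peak, for the 10 member genes (filled circles) and for the 9689 coding genes with a promoter peak (open circles). The ATF4 motif shows the widest gap, with 70.0% against 5.45%, and the UPR element is the only motif below the level of coding genes. Members and coding genes are not matched for peak width.

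Of 75 further genes of the pathway in 9 lists, 65 (86.7%) had a promoter peak, against 48.1% of all coding genes. The lists, like the members, were chosen with earlier results of these data known, so the shares here are descriptions. A peak in the window was present at 70 of the 75, against 63.0% of all coding genes. The ATF4 motif was in a promoter peak of 30 of the 65 (46.2%). These genes had a median widest promoter peak of 840 bp, between the members and all coding genes. Promoter peaks were present at all 8 genes of eIF2 and its exchange factor eIF2B, all 4 of the eIF2 phosphatase, 5 of 6 sensors of the stress, 6 of 8 genes in a list of other transcription factors that also holds the IRE1 sensor gene ERN1, and 7 of 10 enzymes of amino acid and one-carbon metabolism. They were present at 6 of 7 amino acid transporters, 11 of 12 aminoacyl-tRNA synthetases, 9 of 10 ER chaperones and XBP1 or ATF6 targets, and 9 of 10 secreted and other effectors. No peak was in the window of the RNA-sensing kinase gene EIF2AK2, of NUPR1, PSAT1 or SLC7A1, or of SESN3, a relative of SESN2. Among the genes with a promoter peak, the ATF4 motif was in it in 10 of 11 synthetase genes, which charge tRNAs with amino acids, 5 of 6 transporters, 3 of 6 in the list of other transcription factors (ATF3, CEBPG and the sensor gene ERN1), 3 of 7 enzymes and 3 of 9 effectors. It was there in 2 of 5 sensors, 2 of 8 genes of eIF2 and eIF2B, 1 of 4 of the phosphatase and 1 of 9 ER chaperones and targets. The level over all coding genes with a promoter peak was the 5.45% given above, and differences between the lists were not tested. By summed promoter width, 2 of 9 of these genes below 500 bp had it (coding genes 1.69%), 7 of 22 from 500 to 1000 bp (4.07%), 16 of 26 from 1000 to 2000 bp (9.83%) and 5 of 8 from 2000 bp (25.2%). The most peaks were at the transporter subunit gene SLC3A2, with 10, at GDF15, which encodes a secreted stress hormone, with 9, and at MARS1, with 8, of which 6 were also peaks of the DDIT3 window.

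**Figure D4:**
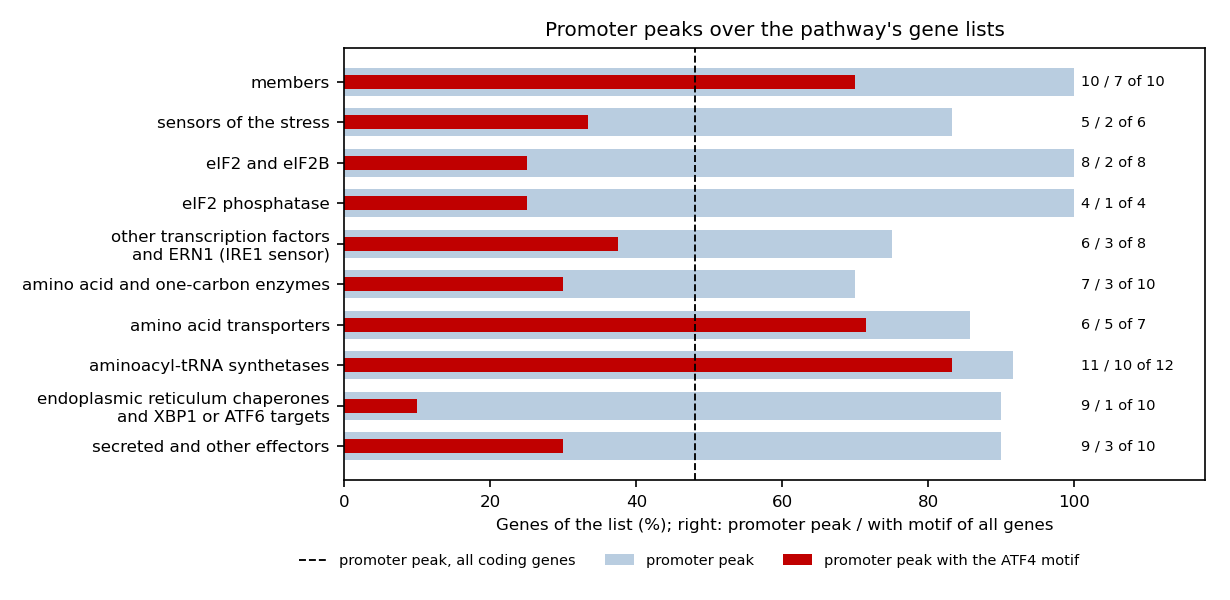
Percentage of the genes of each list with a promoter peak (wide bars) and with a promoter peak that holds the ATF4 motif (narrow bars), with the counts at the right. The dashed line is the 48.1% of all coding genes that had a promoter peak. All lists are above it, and the narrow bar is longest for the aminoacyl-tRNA synthetases.

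Among marker genes, promoter peaks were present at 5 of 5 erythroid genes (GATA1, TAL1, KLF1, EPOR and LMO2), beside 48.1% of all coding genes, so that these counts describe the markers and do not establish the identity of the cells. Of genes that mark other cell types, CD3E, ALB and KRT5 had none, and PAX5 had a promoter peak of 298 bp. None of these genes had the ATF4 motif in a promoter peak.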

How the data were processed

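The starting point was the SMARCA4 peak list of K562 cells deposited by the authors. According to the study's methods, trimming used cutadapt 1.16 and alignment to hg19 used BWA 0.7.15. Picard 2.14.0 flagged duplicate reads, which SAMtools 1.6 then took out. Peaks were called per replicate against input with MACS2 2.1.1 (q-value threshold of 0.05), and bedtools 2.26.0 was used to keep regions found in at least 2 of 3 replicates. Each deposited region consists of a chromosome, a start and an end. Library depth cannot be read from this list, and a region that narrowly missed the threshold in 2 replicates is absent. The series' design text calls the replicates technical, whereas the study describes them as biological.

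GENCODE 44 on GRCh37 and the sequence of the same build were read with Python 3.11.15 and numpy 2.4.6, intervals were computed with statsmodels 0.14.6 and scipy 1.17.1, and plots were drawn with matplotlib 3.10.9. Motifs were searched within each peak's sequence. Intervals are Wilson intervals for shares and binomial order-statistic intervals for medians; they cover counting error only, and peaks are not independent replicates. No test was made. The interval arithmetic and the search for 7 of the motifs were tested on simulated data. All members, every peak in their windows, the genes of other lists without a peak and the 3 with the most peaks were to be named; further genes are named as chosen later. Members and lists were chosen with earlier results of these data known. Signal tracks were not analysed here, and some items are not reported here.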

Additional observations from a re-analysis of the deposited data

How the results depend on the processing

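All 10 members kept a promoter peak and a peak in the window under each alternative that bears on them, and 46 of 60 recomputed values stayed within their counting interval or 1.5 times the main count. With peaks at most 500 bp apart merged, the members had 25 peaks, of which 10 were promoter peaks with a median width of 2074 bp, so the number and width of peaks at a gene depend on how neighbouring regions are joined. With windows of 20 kb on each side the members had 33 peaks away from the promoter. In the 200 bp centred on each peak, which may reach past a narrower peak, the ATF4 motif was found for 5 and the G4 motif for 4. In whole member peaks the counts were 11 and 14. The stricter ATF4 motif was in 6 whole peaks. The share of coding genes with a promoter peak was 45.1% with peaks of at least 200 bp, 46.3% with 1 kb upstream only, 46.7% with 500 bp on either side and 44.2% with canonical transcripts alone. The share with a peak in the window was 60.2% with peaks of at least 200 bp, 59.5% with 5 kb and 67.9% with 20 kb on each side. No paired analysis was possible because the results come from no test and the 1 list used here merges the replicates, and for the same reason none was left out. Data of single replicates were not analysed here. Library depth and peak height were not used here.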
